A study of Homo sapiens with 6 samples.

Results

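The 9 neuronal genes NHLH1, NHLH2, NEUROD1, BSN, PCLO, SYN1, STMN2, ELAVL4 and REST were followed in HEK-293T cells that expressed GFP alone or GFP-tagged RfA1. They were taken by symbol from a table of 16655 genes, and all 9 were found in it. They were chosen with the level in GFP cells and the change with RfA1 already known, so those values are given here as a description and carry no p-value. HEK-293T cells derive from human embryonic kidney and express the large T antigen of SV40, and RfA1 (reflectin A1) is a squid protein of iridescent skin cells. One group of 3 libraries came from cells transfected with the empty pEGFP-C1 vector, which the labels call GFP transfected and control. The other group of 3 came from cells transfected with pEGFP-C1-RfA1, which the labels call RA1 transfected with RfA1 expression. All cultures were transfected with a lipid reagent and harvested 24 h later, by the labels. Transfection was transient and no sorting step is described, so each library may hold cells without the plasmid. In such bulk samples, fewer cells that express a gene and less RNA per cell cannot be told apart. Nothing in the sources says whether the 3 libraries of a group came from separate cultures, so the tests measure the spread between these libraries, which may be technical. Library totals ranged from 10272306 to 11566284 estimated counts, and on the first principal component RfA1 replicate 2 fell beside GFP replicates 2 and 3 (50.7% of the variance).

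Neurons switch on their gene set through basic helix-loop-helix (bHLH) factors such as NEUROD1, which bind short E-box sequences together with E proteins. Outside neurons, many of the same genes are held down by REST, a zinc-finger repressor that binds the RE1 element and recruits histone deacetylases and the LSD1-CoREST complex. Products of the neuronal gene set include BSN (Bassoon) and PCLO (Piccolo), giant scaffolds of the presynaptic active zone, SYN1 (synapsin I), a coat protein of synaptic vesicles, STMN2, a microtubule regulator of growing axons, and ELAVL4 (HuD), a neuronal RNA-binding protein. HEK-293 lines are known to carry some neuronal transcripts in spite of their kidney origin.

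The promoters of members for which the data or the REST element bear on the finding are shown first. RefSeq promoter windows (build GRCh38.p14) run from 250 bases before to 50 bases after a gene's start, and 16 windows of 8 members were read. The core of the RE1 element was searched on both strands as TCAGCACC, then any 2 bases, then GGACAG, so that 14 letters can match. Its left arm TCAGCACC, the right arm with a base added, GGACAGC, and CAGCTG, a form of the E-box, were also searched on both strands. Other forms of the E-box were not searched, so a window without CAGCTG may still hold an E-box. The left arm and the RE1 core overlap. Capitals mark these matches, and a match of the left arm on the opposite strand reads GGTGCTGA.
SYN1, chrX:47619808-47620107, minus strand: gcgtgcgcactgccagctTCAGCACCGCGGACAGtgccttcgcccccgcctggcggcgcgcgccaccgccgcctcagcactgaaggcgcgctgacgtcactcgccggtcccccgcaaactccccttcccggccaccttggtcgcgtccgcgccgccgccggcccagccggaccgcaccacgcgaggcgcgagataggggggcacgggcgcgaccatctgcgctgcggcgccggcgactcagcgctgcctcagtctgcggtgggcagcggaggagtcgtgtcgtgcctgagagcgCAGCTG
BSN, chr3:49554227-49554526, plus strand: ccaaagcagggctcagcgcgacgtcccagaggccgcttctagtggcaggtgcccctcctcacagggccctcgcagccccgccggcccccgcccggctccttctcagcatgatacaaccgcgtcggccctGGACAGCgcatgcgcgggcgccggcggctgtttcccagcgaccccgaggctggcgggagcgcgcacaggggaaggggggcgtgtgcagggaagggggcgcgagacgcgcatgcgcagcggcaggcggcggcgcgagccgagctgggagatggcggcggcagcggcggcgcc
PCLO, chr7:83162835-83163134, minus strand: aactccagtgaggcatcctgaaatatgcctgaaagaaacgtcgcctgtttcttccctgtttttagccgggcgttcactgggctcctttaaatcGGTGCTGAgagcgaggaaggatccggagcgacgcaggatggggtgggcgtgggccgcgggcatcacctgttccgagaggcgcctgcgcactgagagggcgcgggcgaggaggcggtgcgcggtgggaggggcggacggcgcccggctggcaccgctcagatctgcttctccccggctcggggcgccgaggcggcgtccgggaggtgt
REST, chr4:56908660-56908959, plus strand: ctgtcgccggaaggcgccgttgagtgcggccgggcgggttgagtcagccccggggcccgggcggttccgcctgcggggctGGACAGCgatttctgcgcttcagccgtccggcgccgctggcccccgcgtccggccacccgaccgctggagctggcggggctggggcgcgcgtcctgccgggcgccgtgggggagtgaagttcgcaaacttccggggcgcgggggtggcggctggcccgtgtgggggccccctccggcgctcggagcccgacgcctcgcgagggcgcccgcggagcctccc
NHLH1, chr1:160366821-160367120, plus strand: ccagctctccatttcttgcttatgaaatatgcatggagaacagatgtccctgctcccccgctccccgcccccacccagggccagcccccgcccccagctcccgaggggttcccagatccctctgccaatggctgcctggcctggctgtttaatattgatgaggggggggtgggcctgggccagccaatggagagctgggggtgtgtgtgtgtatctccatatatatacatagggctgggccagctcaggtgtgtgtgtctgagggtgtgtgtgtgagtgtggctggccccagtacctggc
The SYN1 window held all 14 letters of the RE1 core, starting 232 bases before its start, which 0.0399% of the 35114 windows of all genes did. The BSN window and the second of the REST windows each held GGACAGC (6.03% of all windows), and the PCLO window held the left arm on the opposite strand (1.68% of all windows). None of the 3 motifs was found in the NHLH1 window, and CAGCTG, present in 17.9% of all windows, was found in SYN1, in 1 of the windows of NHLH2 and in some windows of ELAVL4. A match is a description of these letters and does not show binding.

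The members were at low levels in GFP cells. REST, the repressor, had the highest level, with 5.31, 4.62 and 5.02 TPM (transcript abundance scaled to the library, and corrected for gene length by the authors) in GFP replicates 1, 2 and 3. BSN followed with 1.86, 1.54 and 1.84 TPM, and PCLO with 1.56, 1.45 and 1.49 TPM. The values of these active zone scaffolds overlapped, so their order was not resolved. NHLH1, a bHLH factor of early-born neurons, had 1.31, 1.02 and 1.26 TPM in the same libraries, below every value of PCLO. SYN1 (0.26 to 0.29 TPM), ELAVL4 (0.10 to 0.34), NHLH2 (0.16 to 0.23), NEUROD1 (0.05 to 0.16) and STMN2 (0.00 to 0.08) made up the rest, and each overlapped with the next in this order. On average over the GFP libraries, REST stood at percentile 41.8 of all genes of the table by TPM, BSN at 30.2, PCLO at 29, NHLH1 at 27.3, SYN1 at 18.2 and STMN2 at 9.34. In the RfA1 libraries the order differed in its upper part, since NHLH1 (2.55 to 2.99 TPM) lay above BSN (1.08 to 1.24 TPM) and PCLO (0.99 to 1.39 TPM).

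**Figure D1:**
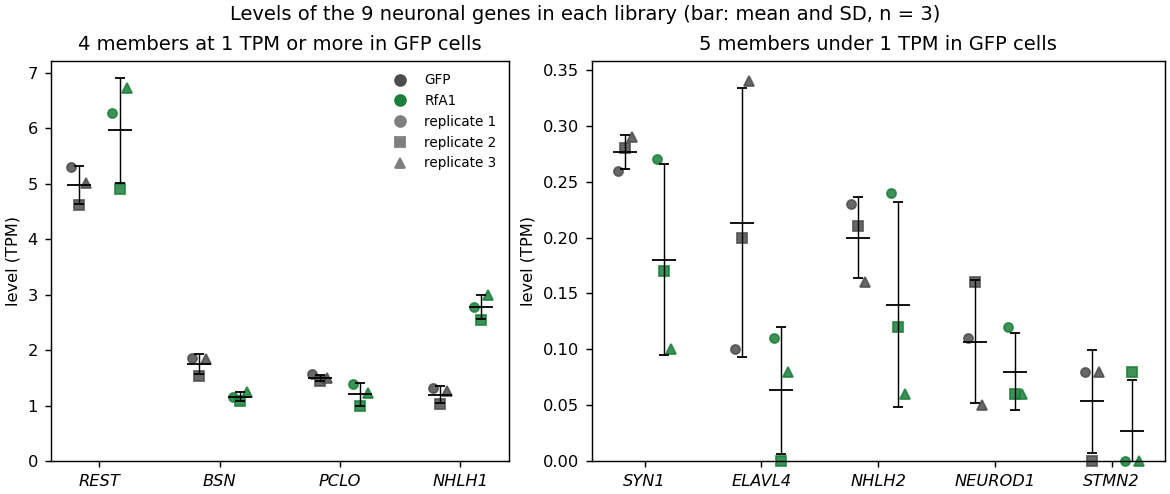
TPM of the 9 neuronal genes in each of 6 libraries, with GFP in grey and RfA1 in green, a symbol for each replicate number and a bar for the mean and SD (n = 3). REST lay highest at 4.62 to 6.73 TPM, and SYN1, ELAVL4, NHLH2, NEUROD1 and STMN2 stayed at or below 0.34 TPM in all libraries.

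Of the 4 members tested, NHLH1 (Gene ID 4807) differed most on the log2 scale. Its estimated counts were 24, 20 and 24 in GFP replicates 1, 2 and 3 and 48, 46 and 49 in the RfA1 replicates. Every RfA1 library was higher than every GFP library, as was so for 9.86% of the 13002 genes tested. As CPM (counts scaled to a common library size after normalisation) it was 2.01 ± 0.217 (SD, n = 3) in GFP cells and 4.47 ± 0.169 (SD, n = 3) in RfA1 cells. The log2 fold change was 1.15 with a standard error of 0.19, which is 2.21 times the GFP level, and was the 8th highest of the 13002 genes. These are small counts. Leaving out each library in turn gave log2 fold changes between 1.06 and 1.20.

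BSN (Gene ID 8927) differed the other way. It had 233, 206 and 239 counts in the GFP replicates and 137, 133 and 139 in the RfA1 replicates. The groups did not overlap, with RfA1 lower, which was so for 8.01% of the genes tested. Its CPM was 20.1 ± 1.65 (SD, n = 3) in GFP cells and 12.8 ± 0.402 (SD, n = 3) in RfA1 cells, a log2 fold change of -0.65 with a standard error of 0.11, or 0.637 of the GFP level. This log2 fold change was the 128th lowest of the genes tested. Between the RfA1 libraries BSN varied little, while GFP replicate 2 was the lowest of the GFP libraries.

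PCLO (Gene ID 27445), the close relative of BSN at the active zone, was also lower in RfA1 cells, by less. Its counts were 190, 190 and 184 in the GFP replicates and 157, 117 and 137 in the RfA1 replicates. By CPM the groups did not overlap, with RfA1 lower, as for 8.01% of the genes tested. The CPM was 16.7 ± 0.427 (SD, n = 3) in GFP cells and 12.8 ± 1.58 (SD, n = 3) in RfA1 cells, a log2 fold change of -0.38 with a standard error of 0.12, or 0.769 of the GFP level. RfA1 replicate 2 was the lowest library. Without it the log2 fold change of PCLO was -0.29.

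REST (Gene ID 5978) was the member with the smallest log2 fold change of the 4 tested. It had 299, 276 and 293 counts in the GFP replicates and 332, 270 and 334 in the RfA1 replicates. RfA1 replicate 2 lay within the range of the GFP libraries by CPM (25.7 against 24.4 to 26.9), and the other RfA1 libraries lay above it at 30.2 and 31.8 CPM. The log2 fold change was 0.19 with a standard error of 0.11.

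**Figure D2:**
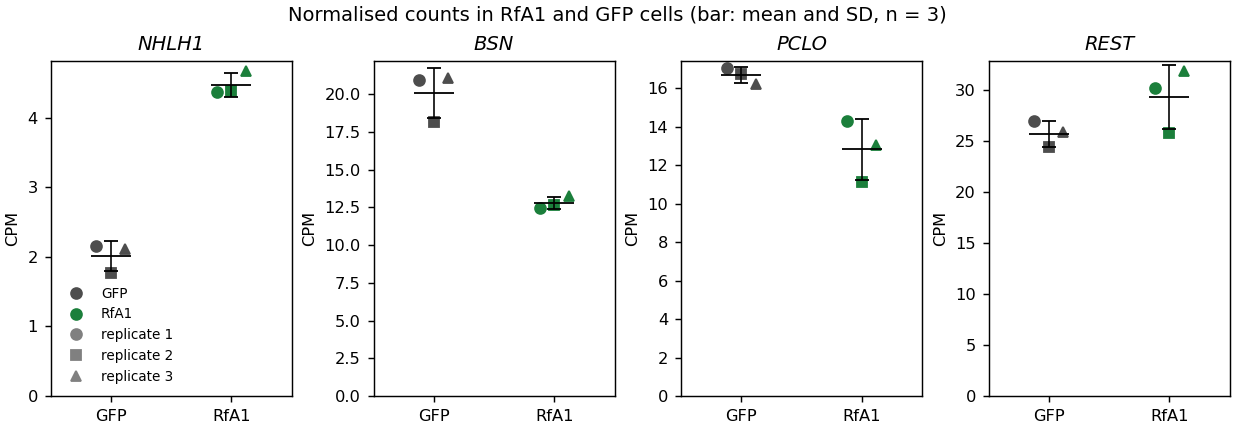
CPM of NHLH1, BSN, PCLO and REST in GFP (grey) and RfA1 (green) libraries, a symbol for each replicate number, with the mean and SD (n = 3) as bars. The RfA1 libraries of NHLH1 sit near 4.47 CPM, above all GFP libraries, those of BSN and PCLO sit below all GFP libraries, and those of REST overlap with them.

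The other 5 members did not reach the filter on low counts and were not tested. SYN1 had 6, 7 and 7 counts in the GFP replicates and 6, 4 and 2 in the RfA1 replicates. Its pooled CPM in RfA1 cells was 0.634 of that in GFP cells, with a 95% interval of 0.282 to 1.36 (exact binomial, which covers counting error only). ELAVL4 had 2, 5 and 6 counts against 3, 0 and 2, a pooled ratio of 0.406 with an interval of 0.113 to 1.21. NHLH2, the paralog of NHLH1, had 4, 4 and 3 counts against 4, 2 and 1, a ratio of 0.672 with an interval of 0.221 to 1.90. NEUROD1 had 2, 3 and 1 counts against 2, 1 and 1. STMN2 had 1, 0 and 1 counts against 0, 1 and 0. A count of 0 allows up to 3 counts, or 0.265 CPM in GFP replicate 2, 0.273 in RfA1 replicate 1 and 0.286 in RfA1 replicates 2 and 3. The groups overlapped in each of the 5 genes, and a difference from GFP cells was not detectable at this depth.

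The 4 tested members did not share a direction. NHLH1 and REST had positive and BSN and PCLO negative log2 fold changes. REST is the repressor of neuronal genes, and its groups overlapped. Among the 4 tested members, NHLH1 was thus the neuronal gene that went up. Each untested member had a pooled ratio below 1, from 0.406 (ELAVL4) to 0.704 (NEUROD1), with an interval that included 1. With edgeR (quasi-likelihood, adjusted p of 0.05), 0 of the 4 passed, while 10 of all 13002 genes did (0.0769%). At an unadjusted p of 0.05, 1 member was higher (7.3% of all genes were) and 2 were lower (6.64%), 13.9% of all genes being past it in either direction. The groups did not overlap for 3 of the 4 members and for 17.9% of all genes. With DESeq2 1 member, BSN, passed the adjusted p, as did 0.254% of all genes, and with limma on log2(TPM + 1) 0 did, against 0.0308% of all genes. Because the members were chosen on this contrast, these counts are no evidence about neuronal genes in general.

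The GC content of the transcripts was 55.9% for NHLH1, 60.9% for BSN, 42.8% for PCLO and 40.0% for REST. After a correction of each library for GC content, the log2 fold changes were 1.22 for NHLH1, -0.52 for BSN, -0.47 for PCLO and 0.075 for REST. NHLH1, BSN and PCLO then passed the adjusted p with edgeR, as did 1.21% of all genes. NHLH1 and BSN also passed it without a filter on low counts (0.12% of all genes), with the replicate number as a block (4.81%), with both block and GC correction (3.02%, PCLO too) and without RfA1 replicate 2 (20.1%). These passes are no evidence either, since the members were chosen on this contrast. The value of REST shrank to under its standard error of 0.079.

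**Figure D3:**
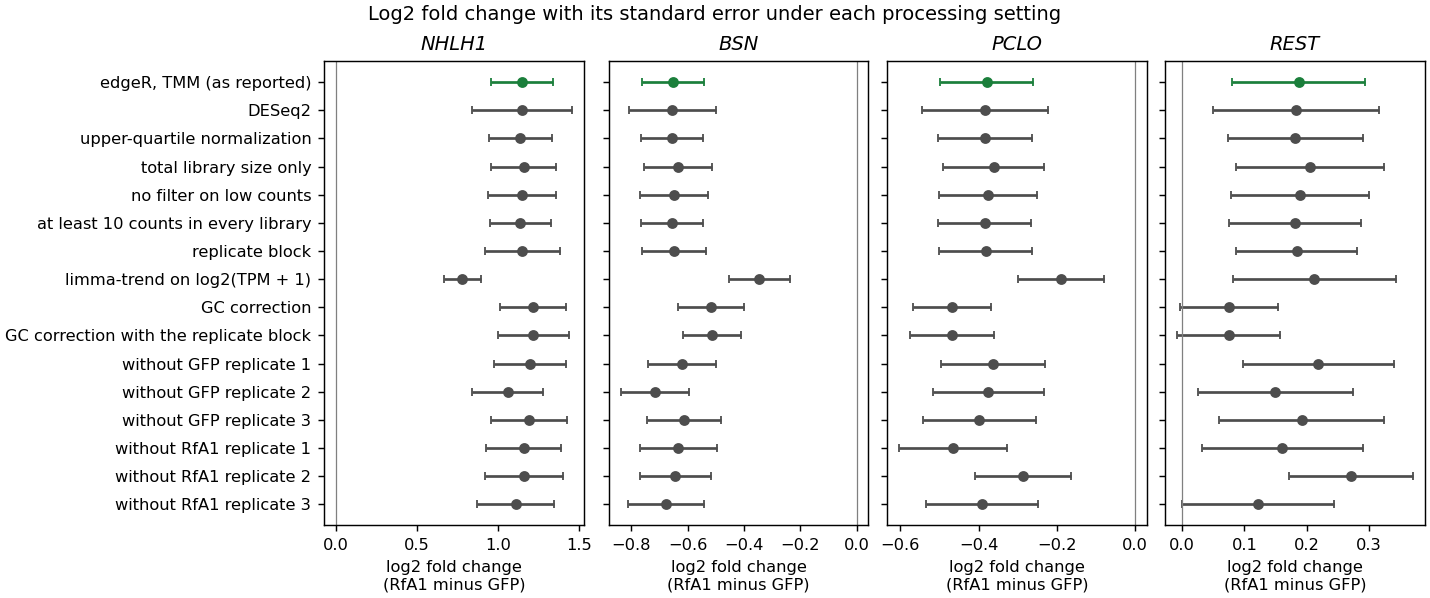
Log2 fold change (RfA1 minus GFP) of NHLH1, BSN, PCLO and REST with its standard error under each processing setting, the reported one in green. NHLH1 stayed between 0.78 and 1.22, BSN between -0.72 and -0.35, PCLO between -0.47 and -0.19 and REST between 0.075 and 0.27.

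Reads of some members cannot be told apart from those of overlapping genes, since the sources do not say whether counting used strand. In the RefSeq gene table, BSN overlaps with APEH, a peptidase gene. APEH had a log2 fold change of -0.13 with a standard error of 0.082 (edgeR adjusted p = 0.474). SYN1 overlaps with TIMP1 and ARAF, which had 97.3 and 90.8 CPM in GFP cells against 0.592 for SYN1. NHLH1, NHLH2, NEUROD1 and REST overlap with no other gene of that table. The nearest genes on either side were looked up after the values of the members were seen. Those of NHLH1, NCSTN and VANGL2, had log2 fold changes of 0.057 and 0.097 (edgeR adjusted p = 0.782 and 0.710). Beside BSN, DAG1 had 0.019 (edgeR adjusted p = 0.940), and MST1 had -0.45 with a standard error of 0.18 (edgeR adjusted p = 0.320). Beside PCLO, CACNA2D1 had -0.13 (edgeR adjusted p = 0.611), and SEMA3E had -0.27 with a standard error of 0.18 (edgeR adjusted p = 0.481).

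Genes related to the members were read through 7 lists without the members, called the neuronal lists here. Not all of these genes are neuronal. The 24 tested REST corepressors and regulators are not, and other lists include broadly expressed genes such as ELAVL1 and PTBP1. Values pooled over the lists are therefore not those of neuronal genes alone. The lists hold 224 genes, of which 211 were in the table and 152 were tested. With edgeR, DESeq2 or limma on log2(TPM + 1), 0 of the 152 passed an adjusted p of 0.05. At an unadjusted p of 0.05 there were 14, 7 higher and 7 lower, or 9.21% against 13.9% of all genes tested. Their median log2 fold change was -0.0045, against -0.0024 for all genes tested. Of the 152, 75 were positive (49.3%, against 49.5% of all genes tested). Without RfA1 replicate 2, 19 of 153 were past an adjusted p of 0.05 with edgeR (9 up, 10 down with RfA1), while 20.1% of all genes were past the same adjusted p.

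Genes under the control of REST come first. Of the 40 REST target genes in the table, 26 lay above 0 and under 1 TPM in GFP cells, 2 were at 0 and 3 were over 10 TPM. Of all 16655 genes, 3901 lay above 0 and under 1 TPM, 435 were at 0 and 7746 were over 10 TPM. Of the 19 targets tested, 1 was higher and 2 were lower at an unadjusted p of 0.05 (15.8%, against 13.9% of all genes). The median log2 fold change of these targets was -0.077. MAPK8IP1, a scaffold of JNK signalling, had the highest level, with 25.5 TPM in GFP and 29.6 TPM in RfA1 cells. CDK5R1, the p35 activator of the kinase CDK5, had the smallest p. Its CPM was 20.6 ± 0.383 (SD, n = 3) with GFP and 28.5 ± 1.89 (SD, n = 3) with RfA1. The log2 fold change was 0.47 with a standard error of 0.098 (edgeR adjusted p = 0.166), and over the alternatives the adjusted p ran from 0.000613 to 0.662. The lowest RfA1 library of CDK5R1 (27.0 CPM) was higher than the highest GFP library (21.0 CPM), as was so for 9.86% of all genes tested. MAPK8IP2, also a JNK scaffold, had a log2 fold change of -0.30 (edgeR adjusted p = 0.316).

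Genes with a match to the RE1 core were also read, chosen from sequence alone. Whether REST binds or controls them in these cells was not tested. Windows with at least 13 of the 14 letters of the RE1 core belonged to 31 genes, of which 21 were in the table. Besides SYN1, 11 of them lay above 0 and under 1 TPM in GFP cells, 1 was at 0, 4 lay from 1 to 10 TPM and 4 over 10 TPM. Of the 10 that were tested, 4 had a positive and 6 a negative log2 fold change, while 49.5% of all genes tested had a positive one. In edgeR's test 0 of them passed an unadjusted p of 0.05, while 13.9% of all genes did. GRIA2, an AMPA glutamate receptor subunit whose window holds all 14 letters, had 0.03, 0.00 and 0.05 TPM in the GFP replicates and 0.00, 0.05 and 0.00 TPM in the RfA1 replicates. Like SYN1, GRIA2 was low in both groups, but it was singled out after its values were seen. Other genes with all 14 letters were higher in GFP cells, such as UCN with 6.52 TPM and LHX3 with 1.23 TPM.

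The partners of REST were at high levels. Of 24 corepressors and regulators of REST, 22 lay over 10 TPM in GFP cells, as did 7746 of all 16655 genes. HMG20B, a subunit of the LSD1-CoREST complex, had the highest level of this list at 261 TPM, and 228 TPM in RfA1 cells. USP7, a deubiquitinase, had the smallest p of this list, with a log2 fold change of 0.26 and a standard error of 0.087 (edgeR adjusted p = 0.267). USP15, a deubiquitinase too, had a log2 fold change of 0.25 (edgeR adjusted p = 0.321). In all, 2 genes of the list were higher and 1 was lower at an unadjusted p of 0.05, of 24 tested. This was 12.5% of the list, against 13.9% of all genes tested.

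Among 34 other neurogenic and bHLH transcription factors, 16 lay above 0 and under 1 TPM, 12 from 1 to 10 TPM and 5 over 10 TPM. Of all 16655 genes, 3901, 4573 and 7746 lay in these ranges. From this list 20 genes were tested. HES6, POU4F1 and SOX4, singled out after their values were seen, had 42.6, 34.8 and 27.4 TPM in GFP cells. The neurogenic factors most closely related to NEUROD1, named here as its family, were low. NEUROD2 had 0.0133 TPM, NEUROG1 0.593 TPM and NEUROG2 1.37 TPM in GFP cells. TCF3, an E protein that pairs with bHLH factors such as NHLH1, had the highest level, with 98.9 TPM in GFP and 91.0 TPM in RfA1 cells. EBF3, a COE-family factor, had 24.0 ± 0.404 CPM (SD, n = 3) with GFP and 28.1 ± 2.39 CPM (SD, n = 3) with RfA1, a log2 fold change of 0.23 (edgeR adjusted p = 0.348). EBF1, of the same family, had a log2 fold change of -0.66 with a standard error of 0.35 (edgeR adjusted p = 0.411). EBF3 was the 1 gene of this list past an unadjusted p of 0.05, of 20 tested (5%, against 13.9% of all genes).

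BSN and PCLO were set beside the other genes of the active zone. Of 25 tested, 15 had a positive log2 fold change (60%, against 49.5% of all genes), with a median of 0.021. At an unadjusted p of 0.05 there was 1 higher and 1 lower gene (8%, against 13.9% of all genes). RABAC1, a binding partner of Rab proteins and of Piccolo, had both the highest level of the list (265 TPM in GFP, 236 TPM in RfA1 cells) and the smallest p. Its log2 fold change was -0.22 with a standard error of 0.093 (edgeR adjusted p = 0.333), and -0.062 after the GC correction. LIN7C, a scaffold protein, had a log2 fold change of 0.31 (edgeR adjusted p = 0.354).

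Of 27 synaptic vesicle and release genes tested, 8 had a positive log2 fold change, and the median was -0.056. After the GC correction the median was -0.000092. The paralogs of SYN1 were above it, with 4.24 TPM for SYN2 and 1.39 TPM for SYN3 in GFP cells. NAPA, the SNAP protein that helps to take apart SNARE complexes, had the highest level at 110 TPM in both groups. SYPL1, a relative of synaptophysin, had the smallest p (edgeR adjusted p = 0.313), its log2 fold change being 0.29 with a standard error of 0.11. ATP6V0A1, a subunit of the vesicle proton pump, had -0.19 (edgeR adjusted p = 0.349).

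Stathmins and neuronal cytoskeleton genes spanned a wide range of levels. STMN1, the stathmin of dividing cells, had 403 TPM in GFP and 446 TPM in RfA1 cells, and STMN3 had 38.7 TPM in GFP cells, whereas STMN2 did not exceed 0.08 TPM. The neurofilament genes NEFL and NEFM, singled out after their values were seen, had 48.0 and 57.3 TPM in GFP cells and 48.5 and 59.2 TPM in RfA1 cells, while NEFH was listed at 0 in every GFP library. Of 21 genes tested, 10 had a positive log2 fold change (47.6%, against 49.5% of all genes). At an unadjusted p of 0.05, 1 of them was higher and 2 were lower (14.3%, against 13.9% of all genes). DPYSL2, a collapsin response mediator, had 8.64 ± 0.681 CPM (SD, n = 3) with GFP and 11.4 ± 0.970 CPM (SD, n = 3) with RfA1, a log2 fold change of 0.40 (edgeR adjusted p = 0.260). DCLK2, a doublecortin-like kinase, had a log2 fold change of -0.77 with a standard error of 0.29 (edgeR adjusted p = 0.297).

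The RNA-binding relatives of ELAVL4 also ranged from high to near 0. ELAVL1, the member of the ELAV family found in all tissues, had 26.1 TPM in GFP cells, ELAVL2 6.16 TPM and ELAVL3 0.0433 TPM, against 0.213 TPM for ELAVL4. PTBP1, which holds back neuronal splicing outside neurons, had the highest level of the list, with 518 TPM in GFP and 507 TPM in RfA1 cells. Its paralog PTBP2 had a log2 fold change of 0.23 (edgeR adjusted p = 0.365) and ELAVL2 one of 0.21 (edgeR adjusted p = 0.382). None of the 23 genes tested passed an unadjusted p of 0.05 in edgeR's test, against 13.9% of all genes. Of the 23, 14 had a positive log2 fold change (60.9%, against 49.5% of all genes).

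**Figure D4:**
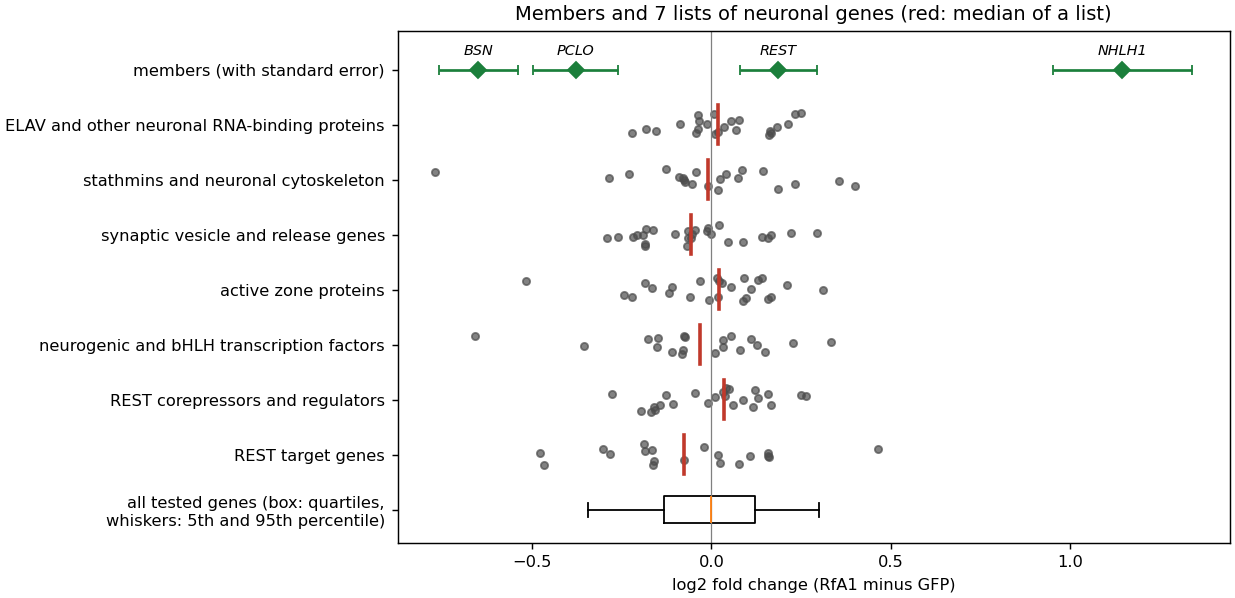
Log2 fold change (RfA1 minus GFP) of each tested gene of 7 neuronal lists, with the median of a list as a red bar, the 4 tested members with their standard errors on top and all 13002 tested genes as a box at the bottom. The medians of the lists lie between -0.077 and 0.036, close to the -0.0024 of all genes, and NHLH1 at 1.15 lies to the right of every listed gene.

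The genes most like NHLH1 and BSN over the 6 libraries were found among 12326 genes whose log2 CPM averaged 1 or more. Likeness was the root mean square difference of log2 CPM, each gene centred on its mean. NHLH1 and BSN were chosen with the contrast known, so the genes nearest to them share its split through this choice. The 3 most like NHLH1 were DUSP1, a phosphatase of MAP kinases (0.130), BTG3, an antiproliferative gene (0.164), and CSRNP1, a nuclear protein (0.184). None of them is a gene of the neuronal lists, but only 152 of the 13002 tested genes are, so this says little. DUSP1 had 42.5, 38.0 and 38.3 CPM in the GFP replicates and 70.7, 67.0 and 77.1 CPM in the RfA1 replicates. The 3 most like BSN were SPRED3, an inhibitor of Ras signalling (0.0558), DNHD1, a dynein heavy chain domain gene (0.0594), and WDR25 (0.0736). SPRED3 had 5.40, 5.12 and 5.39 CPM in the GFP replicates and 3.19, 3.34 and 3.24 CPM in the RfA1 replicates. PCLO was not among the genes that could be named, since members were left out of this comparison.

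**Figure D5:**
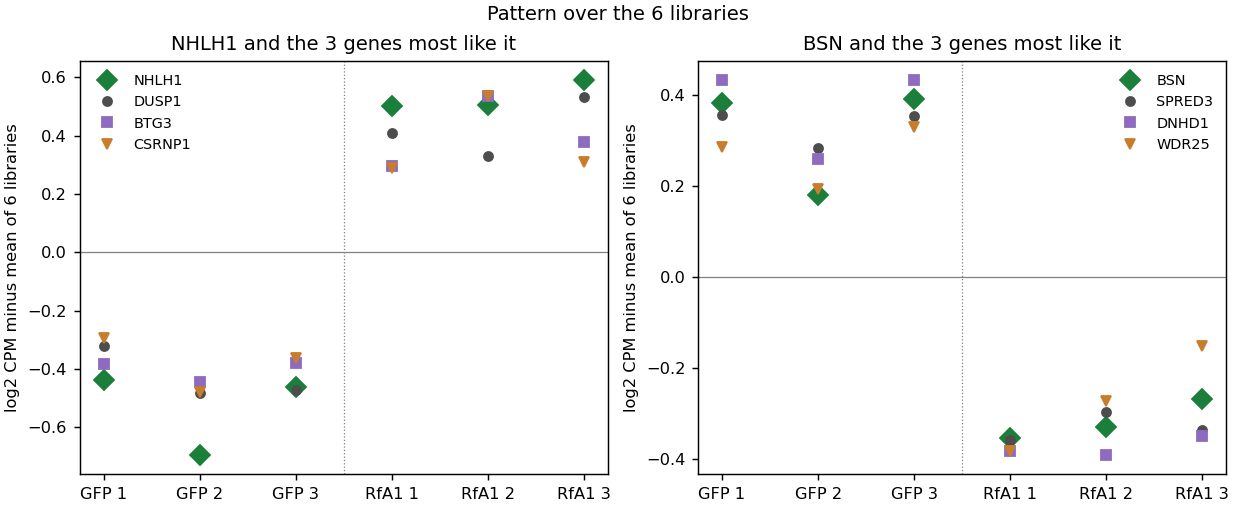
Log2 CPM minus the mean of the 6 libraries, by library, for NHLH1 (left, green) with DUSP1, BTG3 and CSRNP1, and for BSN (right, green) with SPRED3, DNHD1 and WDR25. NHLH1 and its 3 nearest genes lie below 0 in all GFP libraries and above 0 in all RfA1 libraries, and BSN and its nearest genes do the reverse. The nearest genes were picked by this pattern, so the shared split follows from the choice.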

How the data were processed

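RNA-seq was done on 3 GFP and 3 RfA1 libraries of HEK-293T cells, grouped and numbered by the sample titles. The authors deposited one table with estimated counts that were not normalized (7.39% to 8.02% not whole), with TPM scaled per length and library, and with FPKM. The submitters' processing notes name HISAT and the build GRCh38.p13, and the counting tool is not given in the sources used here. The authors' averages over replicates were not used. Each pair of libraries showed more than counting noise (chi-square per degree of freedom 1.89 to 16.6).

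Estimated counts were rounded, filtered with edgeR's filterByExpr (minimum count 10, minimum total 15, 13002 genes left), normalized by TMM and tested two-sided by robust quasi-likelihood F tests (edgeR 4.0.16, R 4.3.3), with Benjamini-Hochberg adjustment over all tested genes (threshold 0.05). Standard errors were derived from the F statistic. In simulated counts the test recovered 78% of 200 genes changed 1.5-fold. These counts had the same dispersion for every gene and no GC trend between libraries, so the real libraries may allow a lower share. For the GC correction, a spline (5 degrees of freedom) on the GC content of the longest GENCODE transcript entered as an offset, with 98.3% of genes matched. Alternatives used DESeq2 1.42.0 and limma 3.58.1.

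The members and the lists, written by hand from general knowledge, were chosen with earlier results of these data known. Named were all members, in each neuronal list the gene with the highest TPM in GFP cells and those with the smallest p, and the 3 genes most like NHLH1 and like BSN. Promoter windows came from RefSeq, and that of STMN2 was not analysed here. Figures were drawn with matplotlib 3.10.9.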

Additional observations from a re-analysis of the deposited data

How the results depend on the processing

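With an adjusted p of 0.05, 10 of all genes passed (8 higher, 2 lower). The count was 33 with DESeq2 (17 higher, 16 lower), 6 with upper-quartile normalization (4 higher, 2 lower), 20 without a filter on low counts, 4 with limma on log2(TPM + 1), 156 with the GC correction, 390 with the GC correction and the replicate block, 1812 at an unadjusted p, and from 0 to 2636 with each library left out in turn, the highest without RfA1 replicate 2. Of the genes in the neuronal lists, 0 passed. There were 2 with the GC correction (CDK5R1 and MAPK8IP1), 3 with the GC correction and the replicate block, 14 at an unadjusted p, and from 0 to 19 with each library left out. With the replicate number as a block, 625 of all genes and 5 of the neuronal lists passed. The numbers are not known to pair the libraries. Deviations of same-numbered libraries from their group means correlated across genes by 0.179, 0.335 and -0.146, and 3 of 6 libraries correlated best with the library of their own number. The log2 fold change of BSN was -0.52 with the GC correction and -0.51 with the block added to it. On log2(TPM + 1), which understates the change of low genes, it was -0.35, with 0.78 for NHLH1 and -0.19 for PCLO. The members were chosen on this contrast, so the passes of the members are no evidence about them. NHLH1 passed the adjusted p in 5, BSN in 6, PCLO in 2 and REST in 0 of 15 alternatives, and the sign of each held in all of them. The other 55 values of the members moved by less than the spread between replicates, and so did the 9 levels when ranked by FPKM. With 20 to 24 counts per GFP library for NHLH1, and at most 7 for SYN1, NHLH2, ELAVL4, NEUROD1 and STMN2, depth limits what can be seen.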

Other observations

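Markers of other cell types were read in the same libraries. Kidney epithelial markers were present in part. The keratin genes KRT8 and KRT18 had 174 and 101 TPM in GFP cells and 173 and 99.4 TPM in RfA1 cells, and PAX2 and LHX1, transcription factors of the developing kidney, had 5.52 and 5.58 TPM in GFP cells, whereas PAX8, a factor of the same kind, had 0.0133 TPM. Markers of the mature kidney lay under 1 TPM in GFP cells, from AQP1 with 0.890 TPM, LRP2 with 0.463 TPM and CUBN with 0.347 TPM, all of the tubule, down to SLC34A1 with 0.0267 TPM, SLC12A3 with 0.0233 TPM and NPHS1 of podocytes with 0.0100 TPM. The summed level of the 13 kidney genes in the table was 259.7 to 310.6 TPM in GFP and 256.4 to 334.9 TPM in RfA1 libraries, so the groups overlapped. Of the 8 tested, EPCAM was the 1 gene past an unadjusted p of 0.05 (12.5%, against 13.9% of all genes). Its log2 fold change was 0.69 (edgeR adjusted p = 0.259).

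Sympathoadrenal markers ranged from 0 to 86.8 TPM in GFP cells. The transcription factors GATA2, HAND1, GATA3, ISL1 and HAND2 had 86.8, 32.5, 26.2, 8.73 and 4.65 TPM. Of the enzymes of catecholamine synthesis, TH, the rate-limiting one, was listed at 0 in every GFP library, DDC had 0.0567 TPM and PNMT had 4.61 TPM. Their sum was 156.4 to 170.7 TPM in GFP and 162.5 to 176.3 TPM in RfA1 libraries, and none of the 6 tested passed an unadjusted p of 0.05 in edgeR's test. Of the 13 glial markers in the table, 10 lay above 0 and under 1 TPM, among them GFAP of astrocytes with 0.497 TPM. Of all 16655 genes, 3901 lay in that range. The glial markers SLC1A3, OLIG2 and MBP were higher, with 18.1, 7.3 and 1.15 TPM in GFP cells. Of the 5 tested, OLIG2 was past an unadjusted p of 0.05 (20%, against 13.9% of all genes). Its log2 fold change was 0.36 (edgeR adjusted p = 0.318). These genes were singled out after their values were seen.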
